A study of Mus musculus with 12 samples.

Results

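The 6 genes described here, Serpinb9, Serpinb6a, Serpinb6b, Serpina3g, Ctla2a and Cst7, encode inhibitors of the proteases that cytotoxic lymphocytes make and store. They were picked by name from the 32285 genes of the count tables, and all 6 were found there. No measured value entered the rule, but the list was drawn up with earlier results of these data known, so the differences between groups describe these libraries and are not independent evidence. Their transcripts were counted in CD8 T cells of prediabetic female NOD/ShiLtJ mice, a strain that develops autoimmune diabetes, with 10 mice aged 10 to 15 weeks pooled for each of 2 rounds. CD45.1+ CD8+ cells free of the CD4, B220 and CD11b lineage markers were sorted by their binding of the NRP-V7 Kd tetramer, which marks cells reactive to the beta cell antigen IGRP. The Islet IGRP– samples held tetramer-negative islet cells, the Islet IGRP+ samples tetramer-positive islet cells, and the Spleen IGRP+ samples tetramer-positive spleen cells. Each group had 2 libraries, Round 1 and Round 2, of 10x 5′ single-cell RNA sequencing with matched T cell receptor libraries. Only spleen cells were enriched for CD8 T cells on magnets and gated on CD44 before the sort, so tissue and preparation cannot be told apart in any comparison of islet with spleen.

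A killer T cell carries granzymes in lysosome-like granules, and a granzyme that leaks into the cytosol of the cell that made it can kill that cell. Serpinb9 encodes the intracellular serpin that traps granzyme B in the cytosol, and Serpinb6a and Serpinb6b encode other intracellular serpins of the same clade that act on serine proteases. The other 3 genes encode inhibitors of cysteine proteases of the cathepsin family. Serpina3g is a serpin that blocks lysosomal cathepsins in the cytosol, Ctla2a resembles the propeptide that keeps cathepsin L-like enzymes silent, and Cst7 encodes cystatin F, which enters granules and inhibits cathepsin C, the enzyme that cuts pro-granzymes into active form.

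The 3 Serpinb genes lay within 1.04 Mb of chromosome 13 in the GENCODE annotation of GRCm38, Serpinb6b at chr13:32965209-32979067 and Serpinb9 at chr13:33003250-33017957 on the plus strand, and Serpinb6a at chr13:33917918-34002794 on the minus strand. Ctla2a lay at chr13:60934155-60936625 on the minus strand, Serpina3g at chr12:104236245-104241939 and Cst7 at chr2:150570415-150578944, both on the plus strand. Gzma (chr13:113093825-113100981) and Gzmb (chr14:56258838-56262260), the granzymes set beside them, were both on the minus strand. Promoter sequences came from RefSeq on GRCm38.p6, where all 6 of 6 members matched, and the 250 bases before each start were searched on both strands for 5 motifs. The window of Serpinb9 is printed because Serpinb9 was found more often in cells with either granzyme in every islet library. That of Serpina3g is printed because its CPM was higher in both tetramer-negative islet libraries than in any other library. A 30-base site of Serpinb6a is printed because 2 motifs overlap in it. Capitals mark the motifs found.
Serpinb9, chr13:33004291-33004540, plus strand: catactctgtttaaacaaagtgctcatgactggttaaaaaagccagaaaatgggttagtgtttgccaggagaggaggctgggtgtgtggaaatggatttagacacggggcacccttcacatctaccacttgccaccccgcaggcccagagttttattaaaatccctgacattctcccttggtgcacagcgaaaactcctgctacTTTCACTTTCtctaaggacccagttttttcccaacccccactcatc
Serpina3g, chr12:104235897-104236146, plus strand: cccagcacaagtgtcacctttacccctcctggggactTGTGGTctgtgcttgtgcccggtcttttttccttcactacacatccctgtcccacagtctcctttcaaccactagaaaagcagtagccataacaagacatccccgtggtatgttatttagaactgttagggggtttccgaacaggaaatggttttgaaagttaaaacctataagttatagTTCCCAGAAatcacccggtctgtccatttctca
Serpinb6a, chr13:34002855-34002884, minus strand: cgcgctTTTCGATTTCCGGGAAcgtttgaa

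Positions count back from -1, the base before the RefSeq start, to the first base of the motif. The Serpinb9 window held an interferon-stimulated response element core (GAAA, any 2 bases, GAAA) at -46, and lay on no annotated exon although the longer GENCODE gene spans it. The same core occurred in the Serpinb6a window at -84, where it overlapped a gamma-activated site, TTCNNNGAA, at -77, in a stretch that is also an exon of the divergent neighbour Ripk1. The window of a second RefSeq start of Serpinb6a, chr13:33936084-33936333, held none of the 5 motifs. Serpina3g held a gamma-activated site at -33 and a Runx site, TGTGGT, at -213. Of 32851 promoters of the same length, 2.98% held the response element core, 7.02% TTCNNNGAA, 6.75% the AP-1 site TGANTCA, 14.0% TGTGGT and 3.33% the T-box site TCACACC. The Ctla2a window held TTCNNNGAA at -157 and TGANTCA at -129, or at -216 and -188 when counted from its second RefSeq start. The window of Cst7 held TGTGGT at -188, and that of Serpinb6b held none of the 5. Among the granzymes, Gzma held the response element core at -97 and TGTGGT at -50, and Gzmb held TGANTCA at -58 and TGTGGT at -93 and -34. A match describes these letters and is no evidence that a factor binds.

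Of 26818 cells, 24117 passed the filters of the study, 1204 to 8932 per library, with 5880696 to 40469961 unique molecular identifiers (UMIs) per library and a median of 2590 to 4216.5 UMIs per cell. The 6 CD8 T cell markers were found in every library, at a summed level of 4198 to 5884 counts scaled to a common library total (CPM). Of 10 pancreatic exocrine genes, all 10 were found in each islet library, at a summed level of 55.3 to 415 CPM, and 2 in each spleen library, at 5.62 and 6.51 CPM. NK cell genes summed to 48.0 to 55.9 CPM in tetramer-negative islet, 151 and 167 CPM in tetramer-positive islet and 204 to 212 CPM in spleen libraries, with Klre1 found throughout and the defining marker Ncr1 at 0 in 5 of 6 libraries. Summed levels were 0 to 13.4 CPM for 3 beta cell genes (0 in spleen), 14.8 to 31.2 for 7 myeloid genes and 0.170 to 1.38 for Cd4 and Foxp3. Pairs of libraries shared 2 to 64 cell barcodes, at most 1.03% of the smaller library. Spleen cells were the shallowest, so shares of cells below are given after each cell was thinned to 1000 UMIs.

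The 3 serpins of the Serpinb clade were higher in tetramer-positive islet cells than in tetramer-positive spleen cells, and the cysteine protease inhibitors did not pass that test. Serpinb9, the granzyme B inhibitor, stood at 42.7 and 91.6 CPM in tetramer-positive islet cells and at 13.9 and 26.2 CPM in spleen cells of Rounds 1 and 2. In tetramer-negative islet cells it stood at 50.6 and 87.8 CPM. Every islet library was thus above both spleen libraries, while the tetramer-negative and tetramer-positive islet libraries overlapped. In each group Round 2 was above Round 1, by 1.73 to 2.15-fold. Round 2 libraries were read with longer reads, and the part of read length in this was not tested.

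Serpinb6b stood at 65.1 and 86.2 CPM in tetramer-positive islet, 69.1 and 75.8 CPM in tetramer-negative islet and 22.1 and 23.6 CPM in spleen. Again every islet library was above both spleen libraries, and the islet groups overlapped. Serpinb6a differed between all 3 groups without overlap, at 81.1 and 105 CPM in tetramer-positive islet, 66.1 and 66.9 CPM in tetramer-negative islet and 42.8 and 49.4 CPM in spleen. The plot of levels by library shows these orders side by side with the granzymes.

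**Figure D1:**
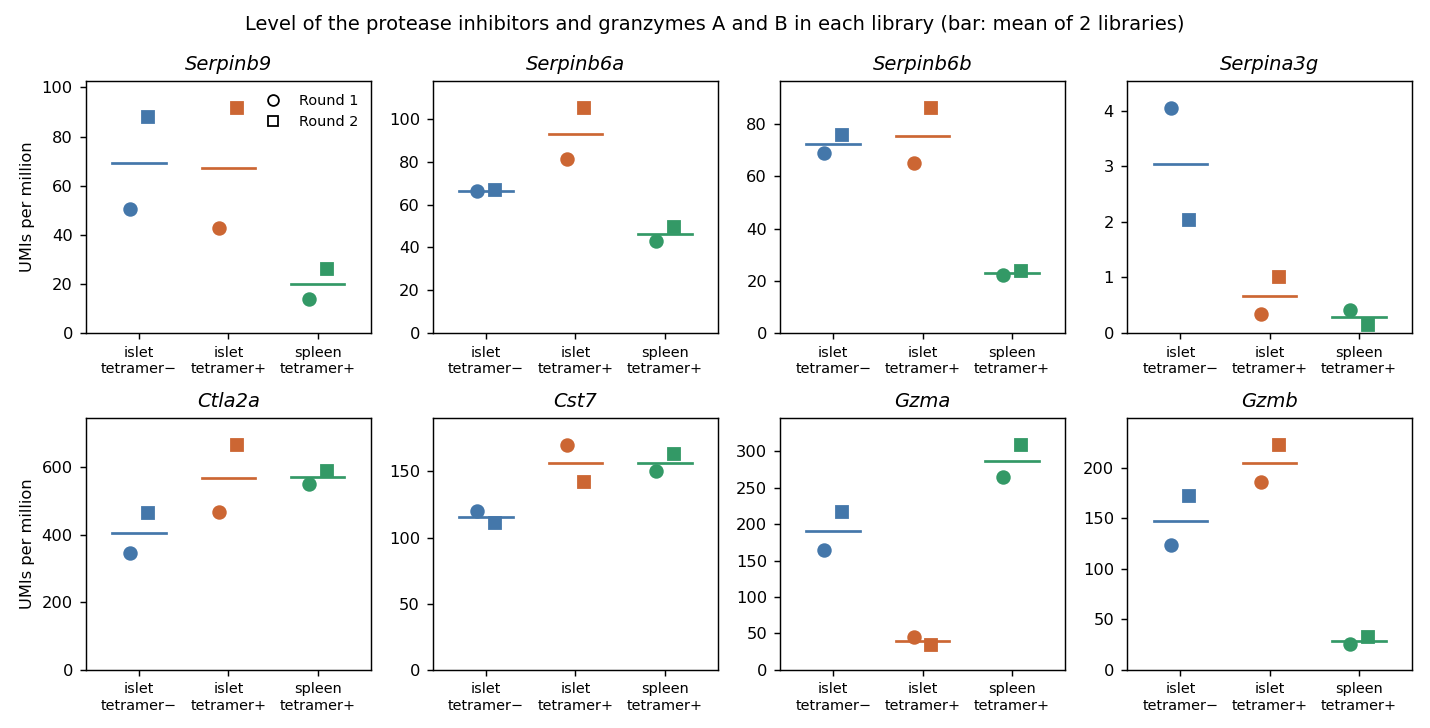
CPM of the 6 inhibitors, Gzma and Gzmb in the 6 libraries, summed over kept cells, with 1 point per library and a line at the mean of each group. Serpinb9, Serpinb6a and Serpinb6b are lower in both spleen libraries than in every islet library, and Serpina3g is highest in the tetramer-negative islet libraries.

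In the edgeR quasi-likelihood fit to all 6 libraries, the tetramer-positive islet level of Serpinb9 was 3.58-fold that of spleen (log2 1.84 ± 0.40 SE, adjusted p = 0.0225). Serpinb6b was 3.51-fold higher (1.81 ± 0.15, adjusted p = 0.00219) and Serpinb6a 2.15-fold higher (1.10 ± 0.14, adjusted p = 0.00543). With the round as a block, the edgeR fit gave 1.82 ± 0.13 for Serpinb9 (adjusted p = 1.5e-07). It gave 1.81 ± 0.13 for Serpinb6b (1.6e-07) and 1.11 ± 0.12 for Serpinb6a (6.5e-06). The fits with libraries left out, given below, had no block. These 3 of 6 members were called higher and 0 lower, beside 13.7% of the 11277 genes called higher and 12.9% lower (26.6% in all), or 28% and 27.1% (55.1% in all) with the round as a block. With libraries left out 1 at a time, Serpinb6b and Serpinb6a were called each time and Serpinb9 in 3 of 6 fits. Serpinb9 lost its call without the Round 2 tetramer-positive islet library (adjusted p = 0.0757), without the Round 1 spleen library (0.113) and without the Round 2 spleen library (0.0663). Exocrine genes were also higher in islet libraries. Cells with at least 2 UMIs of the exocrine, the myeloid or a further marker list were left out in an alternative. Beta, NK and CD4 T cell markers were not part of this filter. The differences were then 1.86 for Serpinb9, 1.78 for Serpinb6b and 1.09 for Serpinb6a, all still called. As each library is a sum over cells, fewer cells that use a gene and less RNA of it per cell cannot be told apart in these levels.

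The granzymes bracketed this comparison. Gzmb rose from 25.6 and 32.0 CPM in spleen to 186 and 223 CPM in tetramer-positive islet cells (log2 2.93 ± 0.18, adjusted p = 0.0014), whereas Gzma fell from 265 and 309 CPM to 45.1 and 34.6 CPM (-2.73 ± 0.26, adjusted p = 0.0029). When only cells with a Gzmb UMI were compared, Serpinb9 (1.87, adjusted p = 0.0239) and Serpinb6b (1.42, 0.0111) were still called higher in islet cells, and Serpinb6a was not (0.95, 0.0542). Among cells without a Gzmb UMI, Serpinb9 (1.5, adjusted p = 0.047), Serpinb6b (1.5, 0.00319) and Serpinb6a (1.09, 0.00614) were all called. Beside these stand 478 genes called higher and 443 lower of 8991 in cells with a Gzmb UMI. In cells without one 1454 were called higher and 1388 lower of 11117. The higher levels of Serpinb9 and Serpinb6b in islets were thus measured on either side of Gzmb detection.

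The cysteine protease inhibitors followed another order. Ctla2a stood at 346 and 464 CPM in tetramer-negative islet, 466 and 666 CPM in tetramer-positive islet and 551 and 589 CPM in spleen cells. Cst7 stood at 119.9 and 111 CPM in tetramer-negative islet, 170.2 and 142 CPM in tetramer-positive islet and 150.1 and 163 CPM in spleen cells. For both genes the tetramer-negative islet libraries were the lowest, and the tetramer-positive islet and spleen libraries overlapped. Between tetramer-positive islet and spleen the log2 difference was 0.07 ± 0.21 for Ctla2a (adjusted p = 0.845) and 0.11 ± 0.22 for Cst7 (0.751). NK cell genes were also lowest in the tetramer-negative islet libraries, and their part in these levels was not tested.

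Serpina3g was rare, with 118 and 82 UMIs in the tetramer-negative islet libraries, 2 and 8 in the tetramer-positive islet libraries and 4 and 1 in the spleen libraries, or 4.05 and 2.03, 0.34 and 1.00, and 0.42 and 0.14 CPM. By CPM both tetramer-negative islet libraries were thus above every other library. In Round 1 the tetramer-negative level was 11.9 times the tetramer-positive one (95% exact interval 3.22 to 99.4, counting error only), and in Round 2 it was 2.02 times (0.979 to 4.84). Against spleen the ratios were 9.72 (3.70 to 36.3) and 14.0 (2.44 to 559). Sequence windows of 91 bases, the Round 1 read length, were compared over the first 500 bases of each transcript. Of those of Serpina3g, 4.95% were shared with Serpina3f or Serpina3i, and 2.36% of those of Ctla2a with Ctla2b. Some reads of these genes therefore cannot be told from those of a relative.

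Between the islet groups no member passed the test without the round, and 4 passed with it. Serpinb6a was 1.39-fold higher in tetramer-positive cells (log2 0.47 ± 0.14, adjusted p = 0.181 without and 0.00739 with the round as a block), Ctla2a 1.39-fold (0.47 ± 0.21, 0.313 and 0.0187) and Cst7 1.36-fold (0.44 ± 0.22, 0.344 and 0.0164). Serpina3g was lower (-2.15 ± 0.68, 0.202 and 0.00904). Serpinb9 (-0.07 ± 0.38, 0.946) and Serpinb6b (0.05 ± 0.14, 0.887) passed neither fit. Counted over the list, edgeR called 0 of 6 members without the block, with 2 at an unadjusted p under 0.05, and DESeq2 also called 0, with 3 under 0.05. The share of all genes called was 1.19% without the block and 30.5% with it, so that 4 of 6 members stand beside 30.5% of genes.

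Read as overlap alone, both tetramer-positive islet libraries were above both tetramer-negative ones for Serpinb6a, Ctla2a and Cst7, as for 24.9% of genes, and below them for Serpina3g, as for 21.3% of genes. Both tetramer-positive islet libraries were above both spleen libraries for the 3 Serpinb members, as for 26.4% of genes. Tetramer-negative islet was above spleen for the 3 Serpinb members and Serpina3g (27.6% of genes) and below it for Ctla2a and Cst7 (35.7%). Gzma was 4.72-fold lower in tetramer-positive than in tetramer-negative islet cells (log2 -2.24 ± 0.25, adjusted p = 0.0259), a call lost with any of the 6 libraries left out (0.0607 to 0.135). Gzmb was 1.38-fold higher in the tetramer-positive cells (0.47 ± 0.17, 0.241 without and 0.00908 with the block).

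Detection followed the levels. At 1000 UMIs per cell, Ctla2a was the member found most often, in 20.3% and 24.2% of tetramer-negative islet cells, 31.4% and 39.1% of tetramer-positive islet cells and 32.6% and 34.6% of spleen cells. Cst7 was found in 10.5% and 9.42%, 14.8% and 12.0%, and 13.7% and 14.7% of cells in the same order. The share with Serpinb6a was 5.74% and 5.49%, 6.62% and 9.07%, and 4.26% and 4.80%. Spleen thus held the lowest share for Serpinb6a, as it did for the other 2 members of its clade.

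Serpinb6b was found in 5.10% and 5.20% of tetramer-negative islet cells, 5.52% and 6.11% of tetramer-positive islet cells and 2.35% and 2.32% of spleen cells. Serpinb9 was found in 4.58% and 6.6%, 3.90% and 6.56%, and 1.62% and 2.87%. Serpina3g was found in 0.379% and 0.159% of tetramer-negative islet cells, in 1 cell of each tetramer-positive islet library, in 0.0869% of Round 1 spleen cells and in 0 of 2373 Round 2 spleen cells, which allows a share of up to 0.126% at 3 counts and of up to 0.155% by the exact interval. Exact 95% Clopper-Pearson intervals reached at most 2.74 percentage points from the share for Ctla2a, 2.16 for Cst7, 1.57 for Serpinb6a, 1.46 for Serpinb6b, 1.35 for Serpinb9 and 0.387 for Serpina3g, and cover counting error only. Thinning left out 193 of 15361, 69 of 2802 and 129 of 5954 cells of the 3 groups that held fewer UMIs. Without thinning the shares of Serpinb9 were 13.5% and 19.1%, 14.3% and 22.2%, and 3.77% and 7.04%, and those of Ctla2a 40.6% and 43.9%, 55.5% and 63.5%, and 50.4% and 51.8%.

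Free RNA can place a UMI in a cell that does not make the transcript. No cell class that lacks these transcripts is reported here, so a share counts cells with a UMI and not cells that express the gene.

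Serpinb9 and Serpinb6b were found more often in cells with Gzmb than in cells without it, in every library. In tetramer-negative islets, 12.2% and 17.2% of Gzmb+ cells held Serpinb9 against 4.09% and 5.75% of Gzmb- cells. In tetramer-positive islets the shares were 7.20% and 11.7% against 3.51% and 5.89%, and in spleen 3.33% and 8.22% against 1.58% and 2.70%. The ratio of shares was 1.98 to 3.0 over the 4 islet libraries and 2.11 and 3.05 in spleen. Exact intervals of the Gzmb+ and Gzmb- shares were apart in 3 of 4 islet libraries and in neither spleen library, which held 90 and 73 Gzmb+ cells. Intervals reached up to 8.82 percentage points from the share in Gzmb+ cells and 1.38 in Gzmb- cells.

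Serpinb6b was found in 15.9% and 11.4% of Gzmb+ against 4.41% and 4.70% of Gzmb- cells in tetramer-negative islets, in 13.6% and 10.6% against 4.56% and 5.53% in tetramer-positive islets, and in 4.44% and 5.48% against 2.29% and 2.22% in spleen. Its ratio was 1.91 to 3.61 in islets and 1.94 and 2.47 in spleen. Exact intervals of its Gzmb+ and Gzmb- shares were apart in 3 of 4 islet libraries and in 0 of 2 spleen libraries. A ratio of at least 1.5 in every islet library was reached by these 2 members and by 24 of 4511 genes (0.532%), and in both spleen libraries again by these 2 members. Of 5093 genes found in enough spleen cells, 4.69% reached it, a set that holds Serpinb6b but not Serpinb9, which fell under the floor of 2% of cells and whose spleen ratios rest on 3 and 6 Gzmb+ cells. Ranked by the mean ratio over islet libraries, Serpinb6b stood at percentile 99.9 of those genes and Serpinb9 at 99.8. Cells of 1 library are not replicates, so these ratios are given with no test.

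By ratio, the other members were less tied to Gzmb. Cst7 had ratios of 1.41 to 1.76 in islets, at percentile 97.2 of all genes, and of 1.39 and 1.1 in spleen. Ctla2a had ratios of 1.09 to 1.61 in islets and of 0.88 and 0.75 in spleen, and Serpinb6a of 0.71 to 1.73 and of 1.32 and 0.85. Exact intervals of the Gzmb+ and Gzmb- shares were apart in 3 of 4 islet libraries for Cst7, as for Serpinb9 and Serpinb6b. They were apart in 2 of 4 for Ctla2a and 1 of 4 for Serpinb6a, and in 0 of 2 spleen libraries for each of these. Serpina3g was too rare for a ratio to be read, with 3 Gzmb+ cells among the 24 and 14 cells that held it in the tetramer-negative islet libraries (ratios of 1.44 and 0.96), and with ratios of 2.10 and 2.93 for Gzma there, from 2 Gzma+ cells in each. Gzmb+ cells were deeper than Gzmb- cells before thinning in tetramer-negative islets, with a median of 4496 and 4356 against 3794 and 3861 UMIs, and every ratio was taken at equal depth.

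**Figure D2:**
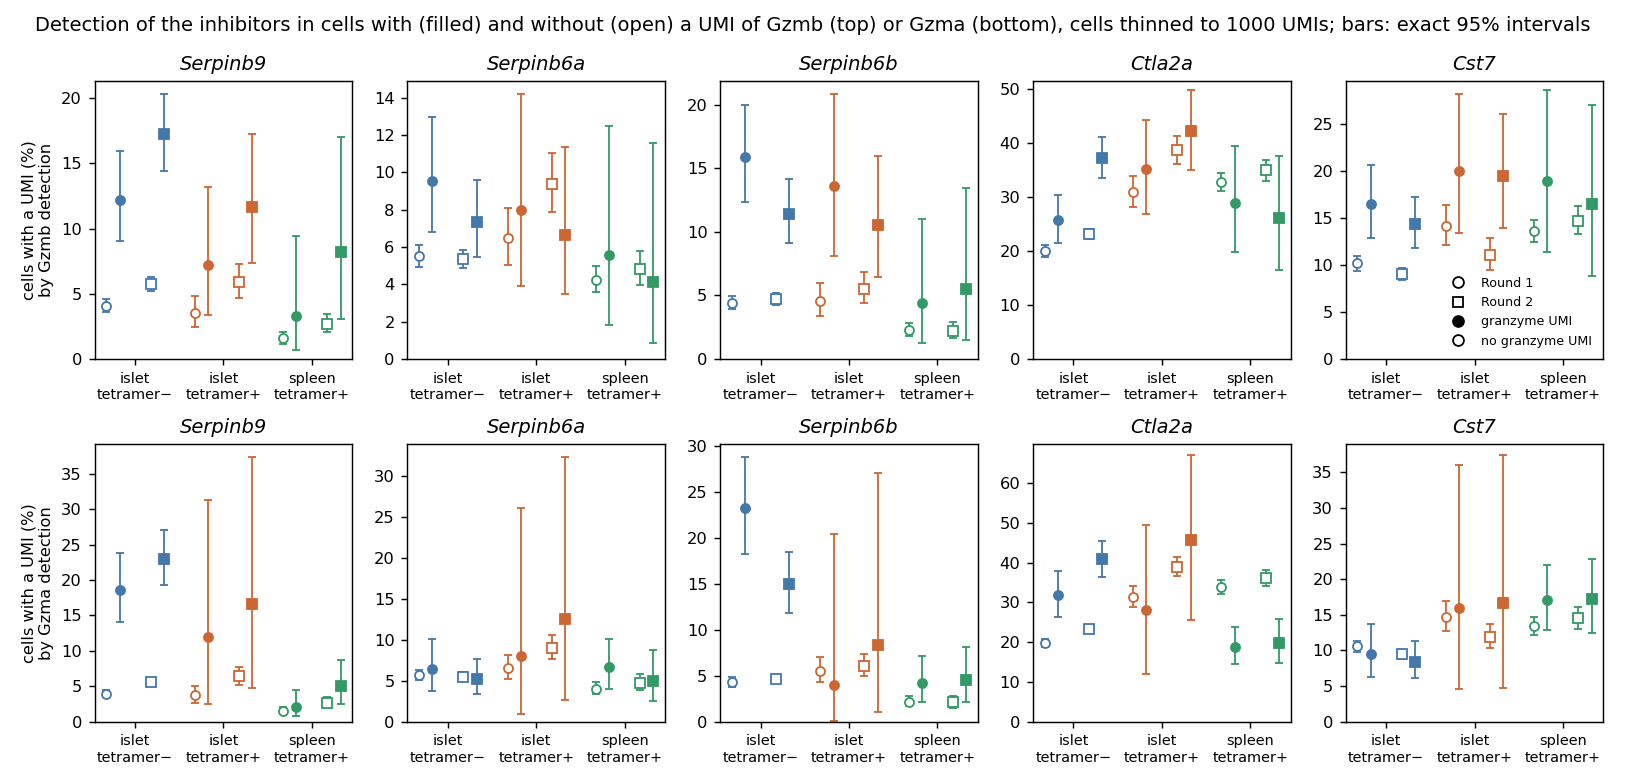
Share of cells with a UMI of each inhibitor except Serpina3g among cells with and without a UMI of Gzmb (upper row) and of Gzma (lower row), by library, with exact 95% intervals, in cells thinned to 1000 UMIs. Serpinb9 and Serpinb6b are higher in Gzmb+ cells of every library, and Ctla2a is lower in Gzma+ spleen cells.

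Gzma gave a sharper split in tetramer-negative islets and a different one in spleen. Of Gzma+ tetramer-negative islet cells, 18.6% and 22.9% held Serpinb9 against 3.97% and 5.67% of Gzma- cells, ratios of 4.69 and 4.05. Serpinb6b was found in 23.2% and 14.9% against 4.31% and 4.64%, ratios of 5.38 and 3.22. Both members thus had their widest separations there, and the intervals did not meet in either round. Serpinb9 was the 1 member with a ratio of at least 1.5 in all 4 islet libraries, beside 0.377% of 4512 genes, although the tetramer-positive islet libraries held only 25 and 24 Gzma+ cells. In spleen Serpinb6b had ratios of 1.92 and 2.16, beside 3.65% of 5093 genes with at least 1.5 in both, and Serpinb9 of 1.32 and 1.88.

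Ctla2a differed by Gzma in both tetramer-negative islet and spleen libraries, in opposite directions. In tetramer-negative islets 31.9% and 40.8% of Gzma+ cells held it against 19.8% and 23.2% of Gzma- cells. In spleen 18.8% and 19.9% of Gzma+ cells held it against 33.9% and 36.2% of Gzma- cells, ratios of 0.55 in both rounds, and the intervals were apart in all 4 of these libraries. In tetramer-positive islets the shares were 28% against 31.5% and 45.8% against 39.0%, on no common side, so tissue and specificity cannot be told apart in this contrast. The mean spleen ratio of Ctla2a stood at percentile 1.96 of genes. Gzma+ spleen cells were shallower than Gzma- ones before thinning, with medians of 2036 and 2370 against 2678 and 2855 UMIs, and the part of depth in who was counted was not tested. Intervals reached up to 21.4 percentage points from the share in Gzma+ cells, in the small tetramer-positive islet classes.

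In tetramer-negative islets, cells with both granzymes held Serpinb9 and Serpinb6b most often. There 95 and 183 thinned cells held Gzma and Gzmb, and 22.1% and 31.1% of them held Serpinb9 and 33.7% and 18.6% Serpinb6b. In cells with neither granzyme these shares were 3.73% and 5.30%, and 4.04% and 4.40%. A mean of 1.04 and 1.05 of the 6 members was found per cell with both granzymes there, against 0.434 and 0.467 per cell with neither. In spleen this mean was 0.5 and 0.571 against 0.55 and 0.601, from 38 and 35 cells with both. Serpinb6b was in 0% of 7 tetramer-positive islet and 2.63% of spleen cells with both granzymes in Round 1. Cells with Gzmb alone held it in 14.4% and 5.77%. In Round 2 its share was highest with both, at 28.6% of 7 and 5.71%. Over all thinned cells 63.3% and 60.0% of tetramer-negative islet, 51.3% and 43.0% of tetramer-positive islet and 54.5% and 51.6% of spleen cells held no member at this depth.

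By marker genes, some inhibitors differed in level between gates of a tissue, such as Serpinb9 in islets. Others overlapped, such as Serpinb6a in spleen, at 39.3 to 57.3 CPM over the gates with enough cells. Gates were read from UMIs of their markers and can overlap, and levels are summed CPM in gates of at least 20 cells. Klrg1+ islet cells, a terminal effector pattern, had the highest Serpinb9, at 167 and 313 CPM in tetramer-negative and 88.1 and 150.0 CPM in tetramer-positive islets, and Klrg1+ spleen cells had 20.6 and 38.2 CPM. Serpinb6b reached 166 and 242, 129 and 118, and 36.5 and 36.1 CPM in the same cells. Klrg1+ cells of an islet library were thus above Klrg1+ cells of either spleen library for both genes. Gzma stood at 1504 and 2685 CPM in the Klrg1+ tetramer-negative islet cells and at 1179 and 1208 CPM in Klrg1+ spleen cells. No Serpina3g UMI was found in a Klrg1+ cell of any library. Over whole libraries it stood at 4.05 and 2.03 CPM in tetramer-negative islet and at most 1.00 CPM elsewhere. At the levels of the tetramer-positive islet and spleen libraries, 0 UMIs in gates of 35 to 419 cells says little. The tetramer-negative islet gates held 152 and 204 cells, and whether their 0 UMIs lie below the library level was not tested. Cx3cr1+ gates of 142 and 191 cells in those libraries held 1 Serpina3g UMI each.

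Havcr2+ Pdcd1+ islet cells, which carry a pattern of chronically stimulated effectors, had Serpinb9 at 89.7 and 133 CPM in tetramer-negative and 77.7 and 138 CPM in tetramer-positive islets. Cst7 was highest in them among the 6 gates in the tetramer-negative libraries, at 200.3 and 196 CPM, and in the tetramer-positive libraries it was at 240.4 and 192 CPM. Tcf7+ Pdcd1+ Havcr2- cells, which carry a stem-like pattern, differed between groups. In tetramer-positive islets they held Serpinb9 at 18.9 and 56.9 CPM with 0 Gzma UMIs in either round and Gzmb at 13.2 and 16.2 CPM, and Serpinb6a at 100.1 and 138 CPM. In Havcr2+ Pdcd1+ cells of the same libraries Serpinb6a stood at 105 and 112 CPM. In spleen the same gate had Ctla2a at 751 and 898 CPM and Serpinb6a at 40.4 and 43.4 CPM.

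Serpina3g reached 9.12 and 2.72 CPM in Nr4a1+ Cd69+ and 7.13 and 2.84 CPM in Tcf7+ Pdcd1+ Havcr2- tetramer-negative islet cells, and 7.73 and 1.15 CPM in Havcr2+ Pdcd1+ ones. Most gated cells were deeper than their library, with medians of 5827 and 6062 UMIs in the tetramer-negative Havcr2+ Pdcd1+ gate against 3793 and 3869 UMIs over the libraries. With gates read in thinned cells, Klrg1+ tetramer-negative islet cells had Serpinb9 at 231 and 432 CPM.

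**Figure D3:**
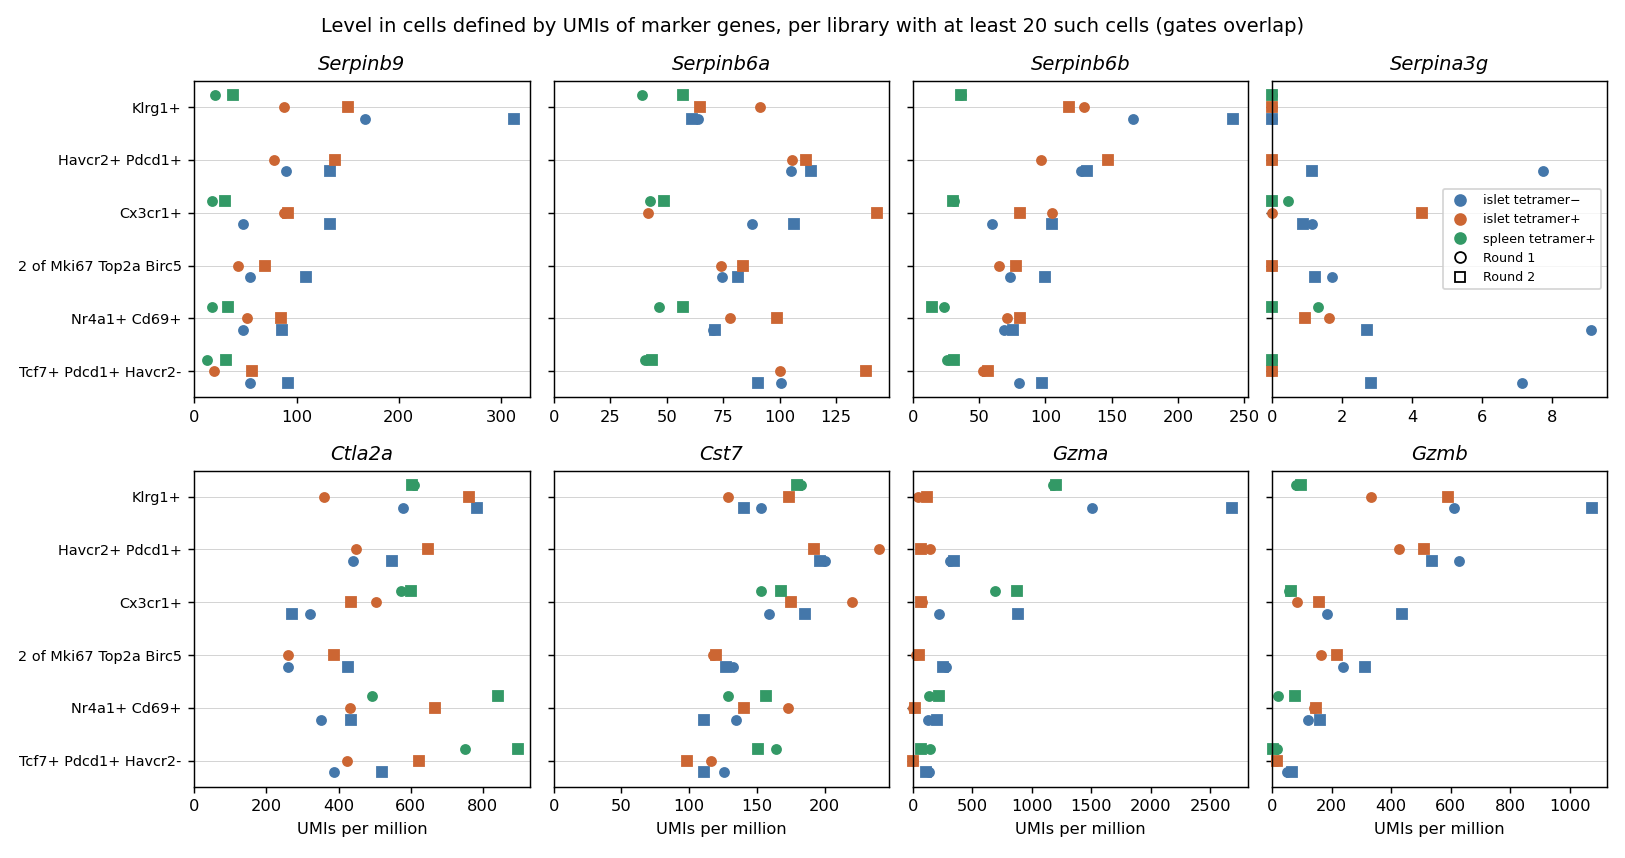
Level (CPM, summed UMIs) of each inhibitor, Gzma and Gzmb in cells gated on marker UMIs, by library, for gates with at least 20 cells. Serpinb9 and Serpinb6b are highest in Klrg1+ tetramer-negative islet cells. Serpina3g, rare in every library, had no UMI in the Klrg1+ gates of 35 to 419 cells.

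Clone size was read from the receptor libraries and not from these genes. A clone with at least 2 cells in its library was called expanded, and a clone of 1 cell a singlet. Cells of expanded clones had more of 5 of the 6 members in tetramer-negative islets and of 3 in spleen, in a fit with the library as a block. In tetramer-negative islets, Cst7 stood at 164 and 161 CPM in expanded against 76.5 and 69.1 CPM in singlet clones (log2 1.01 ± 0.06, adjusted p = 5e-15) and Serpinb6a at 93.6 and 96.0 against 49.4 and 38.6 CPM (0.99 ± 0.08, 3.1e-12). Ctla2a stood at 456 and 602 against 253 and 354 CPM (0.65 ± 0.07, 1.4e-09). Expanded clones were above singlets in both rounds for each of them. Serpinb9 (60.0 and 112 against 43.2 and 72.9 CPM, 0.41 ± 0.09, 0.000201) and Serpinb6b (86.1 and 95.9 against 61.1 and 65.2 CPM, 0.38 ± 0.07, 2.5e-05) had smaller differences. Serpina3g did not pass the test (0.75 ± 0.41, 0.137). The 5 of 6 members stand beside 24.5% of 10841 genes called higher and 21.3% lower (45.8% in all), and without a term for the library Serpinb6a (0.0298) and Cst7 (0.0176) were the members called, beside 4.73% of genes higher and 3.74% lower (8.47% in all).

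In spleen, Ctla2a stood at 735 and 689 CPM in expanded against 123 and 102 CPM in singlet clones (log2 2.40 ± 0.11, adjusted p = 1.8e-18). The fit, which uses TMM scaling, gave a 5.27-fold difference, and the plain CPM ratios were 5.95 and 6.78. Serpinb9 stood at 18.1 and 30.7 against 6.02 and 9.10 CPM (1.43 ± 0.36, 0.00342), from 6 UMIs in the singlets of each round, and Cst7 at 174 and 170.6 against 110.4 and 124 CPM (0.32 ± 0.11, 0.0471). These 3 members stand beside 8.52% of genes called higher and 8.43% lower (17% in all), and without a term for the library Ctla2a alone was called among members (0.00349), beside 2.22% of genes higher and 2.02% lower (4.24% in all). Serpinb6a was at 42.4 and 52.0 against 37.1 and 39.4 CPM (0.04 ± 0.21, 0.945) and Serpinb6b at 27.7 and 25.9 against 13 and 15.2 CPM (0.70 ± 0.28, 0.0874). The test of the difference between tissues was passed by Serpinb6a, with the larger effect in islets (0.95 ± 0.24, 0.00787), Cst7, likewise (0.70 ± 0.14, 0.000591), and Ctla2a, with the larger effect in spleen (-1.75 ± 0.13, 8.8e-12). Without the library term none of the 3 passed it (adjusted p = 0.466, 0.509 and 0.181), beside 0.0646% of genes in each direction. With it, these 2 higher and 1 lower stand beside 4.71% and 4.44% of genes (9.15% in all), and Serpinb9 did not pass that test (-1.02 ± 0.38, 0.094).

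**Figure D4:**
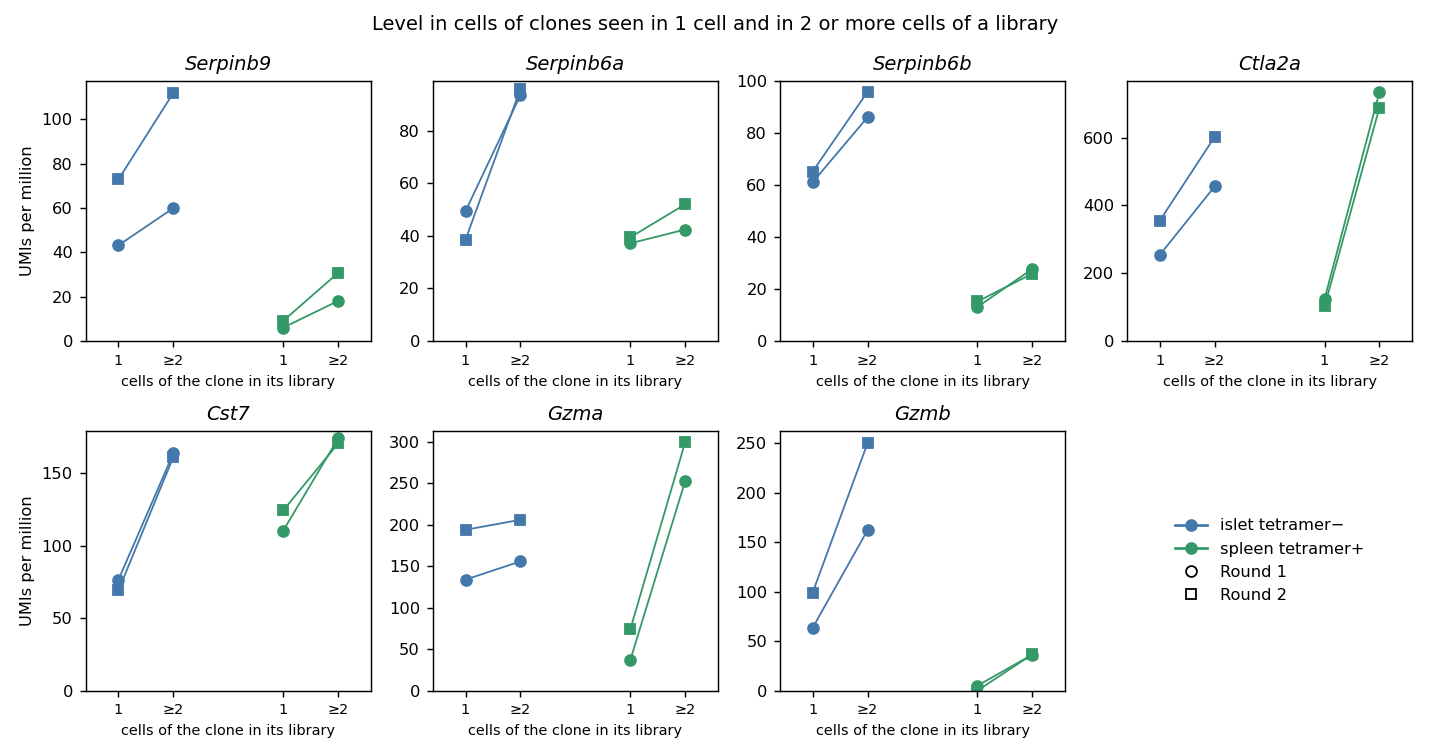
Level (CPM, summed UMIs) of each inhibitor except Serpina3g, and of Gzma and Gzmb, in cells of expanded and of singlet clones, joined by library, for tetramer-negative islet and spleen. The plotted Ctla2a level is 5.95 and 6.78 times higher in expanded clones in spleen and 1.80 and 1.70 times in tetramer-negative islets (Rounds 1 and 2). The TMM-scaled fit gave 5.27-fold and 1.57-fold.

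The clone classes differed in cell state as well, and the calls were not adjusted for it. Havcr2+ Pdcd1+ cells made up 8.48% and 9.79% of expanded and 0.864% and 0.608% of singlet cells in tetramer-negative islets. Klrg1+ cells made up 3.56% and 4.00% against 1.37% and 1.18% there, and 15.8% and 16.3% against 1.59% and 1.23% in spleen. Both gates in which Serpinb9 was high were thus more frequent in expanded clones of islets. Depth also differed, with median UMIs of 4595 and 4297.5 in expanded against 3811 and 3731 in singlet islet cells and of 2612 and 2838.5 against 3856.5 and 4138 in spleen, and its part was not tested.

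Clones with at least 5 cells in both tetramer-positive tissues allowed the same receptors to be followed, 19 clones in Round 1 and 25 in Round 2. Serpinb9 was higher in the islet cells of a clone in 16 of 19 and 24 of 25 clones, Serpinb6a in 18 and 21, and Serpinb6b in 14 and 21. Ctla2a was higher in islet cells in 6 of 19 and 15 of 25 clones, and Cst7 in 12 and 7. The Serpinb members thus lay on the islet side in most clones, and the other 2 on neither side in both rounds. Clones were not counted in this way over all genes. When only clones found in both tissues were fitted, the islet against spleen difference was 1.65 for Serpinb9 (adjusted p = 0.0263), 1.63 for Serpinb6b (0.0107) and 1.08 for Serpinb6a (0.0219). These calls stand beside 862 genes called higher and 760 lower of 9960. The largest clone held 116 to 323 cells in tetramer-positive libraries, and clones of 1 round share their mice.

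Counts of granule and cathepsin genes called between tetramer-positive islet and spleen stand beside 13.7% of all genes called higher and 12.9% lower. With the round as a block these shares were 28% and 27.1%, and nothing particular to a list is read from the counts. Of 15 cytotoxic granule and death ligand genes, 9 were tested, and between tetramer-positive islet and spleen cells 2 were higher (Gzmb and Srgn) and 3 lower (Gzma, Gzmm and Prf1), with a median log2 difference of -0.19 beside -0.03 over all genes. Of 11 tested cathepsins and legumain of 14 listed, Ctsb alone passed, with 273 and 371 CPM in tetramer-positive islet against 119 and 171 CPM in spleen (1.25 ± 0.18, adjusted p = 0.00731), and the list had a median of -0.34. With the round as a block, 2 of these cathepsins were higher (Ctsb, Ctsl) and 4 lower (Ctsd, Ctse, Ctss, Ctsw). Ctsw stood at 355 and 504, 341 and 552, and 537 and 733 CPM in tetramer-negative islet, tetramer-positive islet and spleen, and Ctsd at 189.6 and 245, 255 and 399.7, and 427 and 632 CPM. Of the most abundant granule genes, Nkg7 stood at 1321 and 1349, 2558 and 2496, and 2947 and 2948 CPM, Srgn at 1336 and 1697, 1415 and 1671, and 684 and 680 CPM (1.26 ± 0.23, 0.0138, islet over spleen), and Gzmk at 204 and 227, 281 and 318, and 356 and 387 CPM.

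Few other inhibitors were measurable. Of 36 other serpins listed, 34 were in the files, 13 had a UMI and 4 were tested. Serpine2 was called higher in tetramer-positive islet than in spleen cells (2.04 and 3.63 against 0.312 and 0 CPM, adjusted p = 0.0214) and Serpini1 lower (5.44 and 9.52 against 22.8 and 33.3 CPM, 0.0144), and Serpinb1a, at 0.170 and 1.88 against 0 and 0 CPM, was not (0.0886). With the round as a block 3 were higher (Serpina3i, Serpinb1a, Serpine2) and 1 lower. Of 16 other protease inhibitors listed, 6 were tested, and Cstb, the cytosolic cystatin B, was called higher in islet cells (136 and 151 against 76.6 and 86.4 CPM, 0.91 ± 0.14, 0.00941) and Slpi lower, or 2 (Cstb, Timp2) and 1 with the block. Cst3 (183 and 194 against 173 and 189.8 CPM, 0.489) and Cast (93.2 and 120.5 against 109.4 and 125 CPM, 0.853) were not called. The medians of the 2 lists were 3.14 and 0.20, the first over 4 genes. Their calls stand beside 13.7% of all genes called higher and 12.9% lower, or 28% and 27.1% with the block.

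Of the tested list genes (9 cytotoxic, 11 cathepsins, 6 other inhibitors and 4 other serpins, of which 2 in the clone comparison), few were called between the islet groups, where 0.151% of all genes were higher and 1.04% lower, or 14.4% and 16.1% with the block. The cytotoxic list held 0 genes called higher and 2 lower (Gzma, Gzmm), or 4 and 2 with the block. The cathepsins held 0 and 0, or 3 and 2 with the block (Ctsa, Ctsb, Ctsd higher, Ctsf, Ctsl lower). The other inhibitors held 0 and 1 (Slpi), or 1 (Cstb) and 2 with the block, and the other serpins 0 and 0, or 1 (Serpine2) and 1 (Serpinb1a). Expanded clones had 4 higher and 1 lower cytotoxic genes in tetramer-negative islets and 7 and 1 in spleen, where Gzma was 4.40-fold higher and Gzmb stood at 36.4 and 36.8 CPM against 5.02 and 0 CPM, from 5 and 0 UMIs in the singlets. In tetramer-negative islets Gzmb was 2.28-fold higher in expanded clones and Gzma was not called (log2 -0.01 ± 0.08, adjusted p = 0.957). Of the cathepsins 4 were higher and 3 lower in islets and 4 and 1 in spleen, of the other inhibitors 4 and 2, and 2 and 2, and of 2 other serpins 0 in either tissue. These counts stand beside 24.5% of all genes higher and 21.3% lower in islets and 8.52% and 8.43% in spleen, and nothing particular to a list is read from them. Without the library term, cytotoxic genes were 3 higher and 1 lower in islets and 6 and 0 in spleen, cathepsins 2 and 2, and 1 and 0, and other inhibitors 1 and 1 in either tissue, and the islet difference of Gzmb had an adjusted p = 0.081.

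Across cells, the genes most like each member set Serpinb9 and Serpinb6b beside Gzmb. Likeness was the mean over 6 libraries of the within-library Pearson correlation of log values, among 4940 genes, and cells of a library share its depth. For Serpinb9 the leading genes were Gzmb (mean r = 0.15), Gzmk (0.143) and Nkg7 (0.139), and its r with Serpinb6b was 0.188, from 0.00 in 1 library to 0.349. For Serpinb6b they were Gzmb (0.153), Tmsb4x (0.152) and Lgals1 (0.147), and for Serpinb6a Lgals1 (0.158), S100a6 (0.148) and Vim (0.137). These 3 genes encode galectin-1, a calcium-binding protein and the intermediate filament vimentin. Ctla2a had the highest values, with Ccl5 (0.376), Gzmk (0.263) and Tigit (0.238), and Cst7 had Nkg7 (0.201), AW112010 (0.185) and Lag3 (0.161). For the rare Serpina3g the highest were Gadd45b (0.0491), Ly6a (0.0448) and Ifng (0.0418). Most of these values are weak, as sparse counts make them, and are given as a ranking with no test.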

How the data were processed

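The study sequenced 5′ single-cell libraries of sorted CD8 T cells and counted them with Cell Ranger on mm10. The UMI counts per gene and cell, deposited by the authors as 6 raw matrices, and the tables of receptor contigs that pair each barcode with its clone were used. Cells with under 5% mitochondrial UMIs and 200 to 3500 (islet) or 200 to 2000 (spleen) genes were kept, and doublets were not called further. Libraries are pools of mice. In the fit over the 3 groups, p-values measure the spread between the 2 pools of a group, estimated over all groups together. With the round as a block they measure what is left after the round. In the clone fit each library has its own term, so its p-values do not measure the spread between pools. An exact permutation test of 2 against 2 libraries cannot go below p = 0.333.

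UMIs were summed per library (or per library and clone class) and tested over all genes with the quasi-likelihood test of edgeR 4.0.16 in R 4.3.3, with the filterByExpr filter on low counts, TMM scaling and Benjamini-Hochberg adjustment at 0.05. The model over the 3 groups had no block, and the clone fit had a term for each library. Fold and log2 differences from the fits carry the TMM scaling and the CPM values do not, so the ratio of printed CPM values can differ from the fitted fold. The round was a block in an alternative, since the groups of a round came from the same mice. Deviations of same-round libraries from their group means correlated at r = 0.859, 0.875 and 0.821 over 5618 genes, so the round pairs the libraries. Shares of cells were taken after thinning to 1000 UMIs and carry exact 95% intervals for counting error only. The test was tried on simulated counts. DESeq2 1.42.0, other filters, other cell and clone definitions and each library left out were alternatives.

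The 6 members and all lists (cytotoxic genes, cathepsins, other serpins, other inhibitors, markers of exocrine, beta, myeloid, NK and CD4 T cells) were chosen with earlier results of these data known. One marker list and 1 marker-defined class of cells are not reported here. Named beyond the members were Gzma and Gzmb, by fixed rule up to 3 genes of highest level in each list, and the 3 genes most like each member. Other list genes (such as Ctsl and Slpi) are named only to identify small counts, after their values were seen.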

Additional observations from a re-analysis of the deposited data

Results flagged for a closer look

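The effect of clone size differed between tetramer-negative islet and spleen cells by a test of the difference itself, the interaction in the edgeR quasi-likelihood fit with a term for each library. On the log2 scale the islet effect minus the spleen effect was 0.95 for Serpinb6a (adjusted p = 0.00787), -1.75 for Ctla2a (8.8e-12) and 0.70 for Cst7 (0.000591), and it was -2.14 for Gzma (3.3e-11) and -2.15 for Gzmb (0.00471). Without the library term all 5 calls were lost (adjusted p = 0.466, 0.181, 0.509, 0.100 and 0.497 in the same order). The ratio of expanded to singlet level differed between the tissues in the same direction in both rounds for each gene except Gzmb, whose Round 2 spleen singlets held 0 UMIs and give no ratio. Klrg1+ cells made up 15.8% and 16.3% of expanded against 1.59% and 1.23% of singlet cells in spleen, and 3.56% and 4.00% against 1.37% and 1.18% in tetramer-negative islets, and their part in the differences was not tested. Tetramer specificity and tissue cannot be told apart in this contrast.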

How the results depend on the processing

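Of the differences of members and granzymes recomputed under alternatives, 413 kept their direction and side of the threshold, 32 lost and 10 gained a call, 14 reversed and 3 without a test moved. Of the shares 35 kept their value, 21 moved and 2 reversed. The cause of a change was not tested.

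Between the islet groups, members called went from 0 to 4 with the replicate block and to 1 (Serpina3g) with no filter on low counts. Genes called went from 134 to 3442 with the block, 24 with the 2 groups alone, 574 with DESeq2, 711 with no filter and 27 in Gzmb+ cells, and to 0 to 30 with a library left out. Without the Round 1 and the Round 2 tetramer-positive islet library 0 genes were called by edgeR, with 1251 and 2524 at an unadjusted p under 0.05. Between tetramer-positive islet and spleen, genes called went from 3004 to 6215 with the block, 921 in Gzmb+ cells, 1622 in clones of both tissues and 892 to 2050 with a library left out, and members called to 2 to 3. The block changed no member call there.

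For clone size in tetramer-negative islets, members called went from 5 to 2 with no replicate block and 3 with DESeq2, and genes from 4964 to 918 and, with DESeq2, 2134. In spleen, members went from 3 to 1 with no block, and genes from 1838 to 460 and, with DESeq2, 1153. For the difference between tissues, members went from 3 to 0 with no block, 3 of them at an unadjusted p under 0.05 by edgeR, and genes from 992 to 14, 465 with DESeq2 and 1626 without the upper gene limit. With DESeq2 the tissue difference of Serpinb6a had an adjusted p = 0.063. The Cst7 call in spleen was lost with DESeq2 (0.287), without the largest clone of each library, an alternative chosen after seeing the data (0.155), and with expansion from 5 cells (0.0616). With 1 round left out the clone fits leave no residual degrees of freedom and give values only.

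No reversed difference was called. With a library left out, the Serpinb9 difference between islet groups ranged from -0.56 to 0.31, turning positive without the Round 2 tetramer-negative (0.30) or the Round 1 tetramer-positive library. That of Serpinb6b ranged from -0.0296 (without the Round 2 tetramer-positive library) to 0.14, and was -0.13 in Gzmb+ and -0.0332 in Gzmb- cells. Between islet and spleen, Ctla2a ranged from -0.0662 (without the Round 2 islet library) to 0.19, with -0.0109 without the Round 2 spleen library, and was -0.12 without the gene limit and -0.30 in clones of both tissues. Cst7 ranged from -0.18 (without the Round 1 islet library) to 0.34, and was -0.0575 in Gzmb- cells. For clone size, Gzma in islets was 0.00933 with DESeq2 size factors, 0.0122 with DESeq2 and 0.10 without the largest clones. The Serpinb9 share ratio between islet groups was 0.15 (log2) with no thinning and 0.14 at 2000 UMIs.

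Members with both tetramer-positive islet shares above both spleen shares went from 3 to 5 with no thinning, members tied to Gzmb in spleen from 2 to 1 with 2 UMIs or more, and members tied to Gzma in islets from 1 to 2 with no thinning. Members highest in Klrg1+ cells of every islet library with enough of them went from 1 to 3 with gates read in thinned cells. The libraries counted differ, as the thinned gate held only 6 and 5 cells in the tetramer-positive islet libraries. In the tetramer-negative islet libraries Serpinb9, Serpinb6b and Ctla2a were highest in Klrg1+ cells with all UMIs too. Depth limits Serpina3g and the classes with few granzyme-positive cells.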
